A study of Mus musculus with 6 samples.

Results

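The mevalonate arm of cholesterol synthesis was followed step by step in whole mouse ovaries. Its 9 members, Acat2, Hmgcs1, Mvk, Pmvk, Mvd, Idi1, Fdps, Ggps1 and Fdft1, were taken by symbol from the 44788 genes of the deposited count table, and all 9 were found. RNA-seq had been performed on 3 wild type (WT, Bnc1+/+) ovaries, numbered 1, 4 and 7, and on 3 Bnc1tr/tr ovaries, numbered 1, 2 and 3. All mice were 8 weeks old and on a C57BL/6 J background. Bnc1tr/tr mice are homozygous for a small germline deletion in Bnc1, the gene of the zinc finger protein basonuclin 1, that shifts the reading frame, so every cell type of the ovary carries it. No Cre line and no hormone or drug treatment is given for either group. Whole ovaries hold many cell types, and fewer cells of a type and less RNA per cell cannot be told apart in these values. The study's methods describe littermates as the basis of comparison, but the labels do not say which ovaries share a litter. The edgeR p values set the genotype difference against the spread between ovaries of the same genotype, in these 6 libraries only.

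The mevalonate pathway builds isoprenoids and sterols from acetyl-CoA. A thiolase and a synthase make HMG-CoA, mevalonate is formed from it and phosphorylated by a pair of kinases, and a decarboxylase then gives isopentenyl diphosphate, the building block that Idi1 isomerizes. Fdps joins these blocks into farnesyl diphosphate, which either goes to squalene and cholesterol through Fdft1 or is lengthened by Ggps1 to geranylgeranyl diphosphate, used to attach lipid anchors to proteins. In most cells the sterol genes are switched on together by the transcription factor SREBP-2 when membrane cholesterol is low. In the ovary, cholesterol is also the starting material of steroid hormones, and luteal cells make progesterone from it.

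Of the 9 members, 8 were lower in Bnc1tr/tr ovaries and 1, Ggps1, did not pass the test. Counts were compared with edgeR's quasi-likelihood test, two-sided, with p adjusted by the Benjamini-Hochberg method over all 19423 genes tested and a threshold of 0.05. Over all genes tested, 4.19% were called lower and 2.88% higher. The median log2 fold change (Bnc1tr/tr over WT) of the 9 members was -1.54, against 0.018 over all genes tested. In 8 members every Bnc1tr/tr ovary lay below every WT ovary, which was true of 15.8% of all genes tested. Levels are given as CPM, reads of a gene relative to the size of its library after TMM scaling. Together the 9 members held 1122, 1422 and 1046 CPM in the WT ovaries and 355, 435 and 518 CPM in the Bnc1tr/tr ovaries. The summed level was 1197 ± 198 CPM in WT and 436 ± 81.4 CPM in Bnc1tr/tr (SD, n = 3 each).

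**Figure D1:**
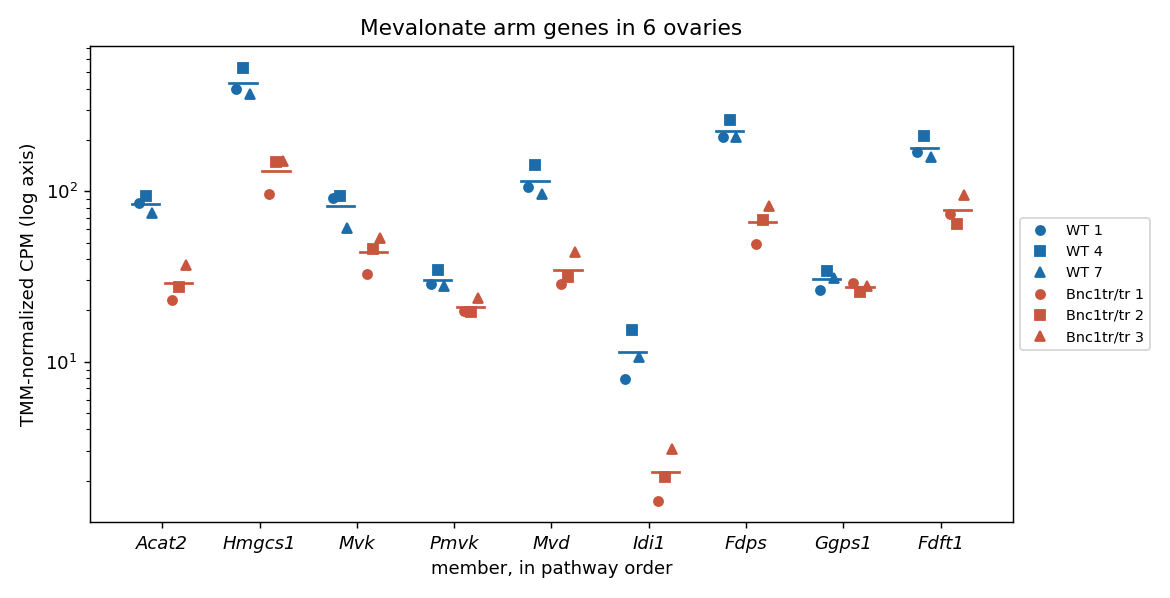
TMM-normalized CPM (log axis) of the 9 members in pathway order, with 1 point per ovary and a line at the mean of each genotype. In 8 members all Bnc1tr/tr points lie below all WT points, and for Ggps1 the points overlap. WT ovary 4 is the highest of the WT ovaries for all 9 members.

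Acat2 encodes the cytosolic thiolase that joins acetyl-CoA units at the start of the pathway. It lies on the minus strand of chromosome 17 (GRCm38, 12942890 to 12960747). Acat2 was at 85.3, 93.5 and 75.1 CPM in WT ovaries 1, 4 and 7 and at 23.0, 27.4 and 37.1 CPM in Bnc1tr/tr ovaries 1, 2 and 3. The genotypes did not overlap, and Bnc1tr/tr ovaries held on average 34.4% of the WT level. On the log2 scale Acat2 changed by -1.54 ± 0.18 (estimate and standard error, as for every ± on a fold change here, adjusted p = 0.00404). Acat3, the neighbouring paralog, lay between 7.21 and 8.85 CPM in WT and between 1.92 and 5.16 CPM in Bnc1tr/tr ovaries (log2 fold change -1.14 ± 0.32, adjusted p = 0.077). Of the distinct 50-base stretches of the Acat2 transcripts, 39.1% also occurred in transcripts of other genes, Acat3 first among them. How the authors counted shared reads is not given in the sources used here, so the split between Acat2 and Acat3 is uncertain.

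Hmgcs1, the cytosolic HMG-CoA synthase, was the member with the most reads (chromosome 13, 119690379 to 119708260, plus strand). Its level was 398, 534 and 375 CPM in the WT ovaries and 96.9, 150 and 151 CPM in the Bnc1tr/tr ovaries. Even the highest Bnc1tr/tr ovary was well under the lowest WT ovary, by 2.48-fold. This was a log2 fold change of -1.71 ± 0.21 (adjusted p = 0.00479).

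The kinases that follow fell least of the members called. Mvk, mevalonate kinase (chromosome 5, 114444269 to 114460591, plus strand), was at 91.2, 93.5 and 61.1 CPM in WT and at 32.8, 45.7 and 53.3 CPM in Bnc1tr/tr ovaries. WT ovary 7 and Bnc1tr/tr ovary 3 lay close to each other, at a ratio of 1.15. Mvk had a log2 fold change of -0.90 ± 0.21 (adjusted p = 0.0472). Pmvk, phosphomevalonate kinase (chromosome 3, 89454541 to 89469013, plus strand), was at 28.5, 34.6 and 27.9 CPM in WT and at 20.0, 19.6 and 23.5 CPM in Bnc1tr/tr ovaries. All 3 Bnc1tr/tr values were lower, at 69.3% of the WT level on average. Pmvk thus changed by -0.53 ± 0.12 on the log2 scale (adjusted p = 0.0442). Both calls lay just under the threshold and were lost in most fits without 1 ovary. The edgeR adjusted p of Mvk was 0.045 without WT ovary 7 and was past 0.05 without WT ovary 1 (0.124) or 4 (0.182) or Bnc1tr/tr ovary 1 (0.0813), 2 (0.0866) or 3 (0.0572). For Pmvk the call was lost whichever ovary was left out, with an edgeR adjusted p of 0.0824, 0.158 and 0.0875 without WT ovaries 1, 4 and 7 and of 0.0946, 0.0936 and 0.0609 without Bnc1tr/tr ovaries 1, 2 and 3. The log2 fold change stayed negative in each of these fits, from -1.08 to -0.73 for Mvk and from -0.62 to -0.43 for Pmvk.

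Mvd, the decarboxylase that makes isopentenyl diphosphate (chromosome 8, 122433601 to 122443422, minus strand), was at 107, 143 and 96.7 CPM in WT and at 28.6, 31.4 and 44.2 CPM in Bnc1tr/tr ovaries. The genotypes were far apart, with 30.1% of the WT level on average in Bnc1tr/tr. Mvd had a log2 fold change of -1.73 ± 0.20 (adjusted p = 0.00435).

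Idi1, the isomerase that turns isopentenyl into dimethylallyl diphosphate, had the largest fold change of the 9 (chromosome 13, 8885501 to 8892451, plus strand). It was at 7.92, 15.4 and 10.7 CPM in WT and at 1.53, 2.12 and 3.07 CPM in Bnc1tr/tr ovaries, which came from 213, 511 and 310 reads and from 43, 55 and 87 reads. No Bnc1tr/tr ovary came near a WT ovary, but the WT ovaries themselves differed widely. For Idi1 the log2 fold change came to -2.34 ± 0.33 (adjusted p = 0.0075). Idi1 also had the widest 95% interval of the members, from -3.10 to -1.58. Its count was the lowest of the 9, and 25.3% of the 50-base stretches of its transcripts occur elsewhere, mostly in predicted genes. Whether reads were lost to such copies was not tested. Idi2, its paralog, was at or under 1 read in every ovary.

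Fdps, farnesyl diphosphate synthase (chromosome 3, 89093588 to 89101959, minus strand), stands at the branch point. Fdps was at 207, 264 and 209 CPM in WT and at 49.1, 68.1 and 82.2 CPM in Bnc1tr/tr ovaries. That was 29.3% of the WT level on average, with no overlap. Its log2 fold change, -1.77 ± 0.19, passed the test (adjusted p = 0.0035). Of the exon bases of Fdps, 26.7% are shared with Gm43738, a predicted gene on the same strand, and 26.2% of the 50-base stretches of its transcripts occur in other genes. How such reads were assigned is not given in the sources used here, and this limit also touches each ratio to Fdps.

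Past Fdps the enzymes of the branches differed. Fdft1, squalene synthase, commits farnesyl diphosphate to sterols (chromosome 14, 63145150 to 63179578, minus strand). It was at 171, 210.5 and 160 CPM in WT and at 74.1, 64.8 and 95.1 CPM in Bnc1tr/tr ovaries. Every Bnc1tr/tr ovary was lower, with a log2 fold change of -1.21 ± 0.16 (adjusted p = 0.00672). Of the exon bases of Fdft1, 18.3% lie under exons of Ctsb, an abundant cathepsin gene on the opposite strand, and the strand setting of the counting is not given in the sources used here. Ctsb was at 1054 ± 61.2 CPM in WT and at 839 ± 219 CPM in Bnc1tr/tr (SD, n = 3 each) and did not pass the test (adjusted p = 0.309).

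Ggps1, geranylgeranyl diphosphate synthase, leads away from cholesterol (chromosome 13, 14050659 to 14063488, minus strand). Its level was 26.2, 34.0 and 31.1 CPM in WT and 28.9, 25.8 and 27.8 CPM in Bnc1tr/tr ovaries. The genotypes overlapped, and the Bnc1tr/tr mean was 90.3% of the WT mean. Ggps1 had a log2 fold change of -0.15 ± 0.11 (adjusted p = 0.476), with a 95% interval from -0.41 to 0.12. Of its exon bases, 5.44% lie under exons of Arid4b on the opposite strand. Of the 50-base stretches of its transcripts, 9.58% occur in other genes. Arid4b was at 26.2 ± 1.20 CPM in WT and 27.8 ± 3.82 CPM in Bnc1tr/tr (SD, n = 3 each). Its part in the Ggps1 counts was not tested.

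**Figure D2:**
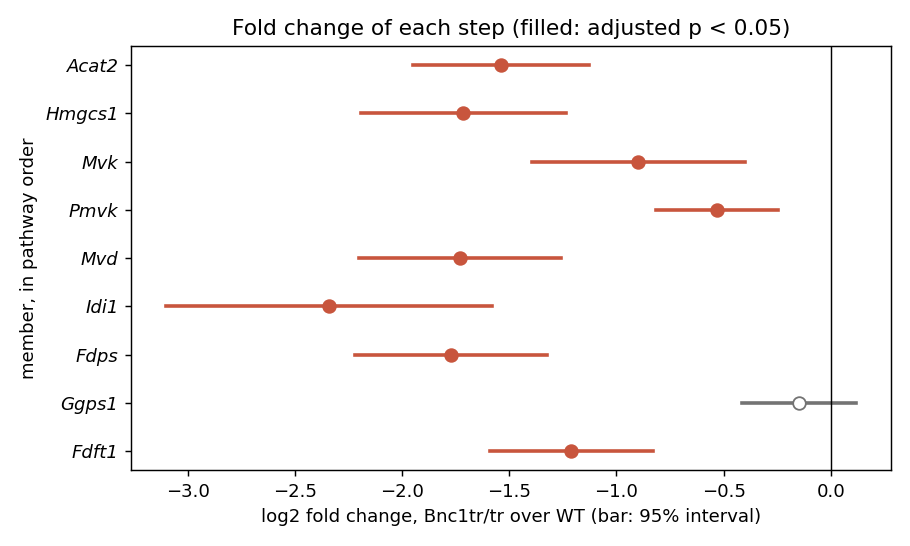
Log2 fold change (Bnc1tr/tr over WT) of each member in pathway order, with its 95% interval from the edgeR fit, filled where adjusted p was under 0.05. Idi1 lies farthest left at -2.34, Pmvk is the smallest change called at -0.53, and only the interval of Ggps1 crosses 0.

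Among the WT ovaries, ovary 4 was the highest for 9 of 9 members, and the lowest was ovary 7 for 6 members and ovary 1 for 3. Among the Bnc1tr/tr ovaries, ovary 3 was the highest for 8 members and ovary 1 the lowest for 6. The coefficient of variation between ovaries of a genotype ran from 10.9% to 33.5% in WT and from 5.79% to 34.7% in Bnc1tr/tr. The mean log2(CPM + 1) of the 9 members over the 6 ovaries correlated with each member at Pearson's r between 0.934 and 0.999, except for Ggps1 at 0.572. These are descriptions over 6 libraries that share the genotype difference and in which each member is part of the mean.

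Whether the steps changed by unequal amounts was asked with ratios between neighbouring members inside each ovary, which do not depend on the scaling between libraries. In 6 of 8 pairs the log2 ratios of the genotypes did not overlap. Each of these had p = 0.1 in the exact two-sided permutation test, the smallest p that 3 ovaries against 3 allow, and 0.133 after Benjamini-Hochberg adjustment over the 8 pairs. No pair could therefore pass 0.05, and the values are given for their size.

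The largest shift was at the branch point. The log2 ratio of Ggps1 to Fdps was -2.98, -2.96 and -2.75 in WT ovaries 1, 4 and 7 and -0.77, -1.40 and -1.56 in Bnc1tr/tr ovaries 1, 2 and 3, a difference of 1.65. Fdps reads thus outnumbered Ggps1 reads in all 6 ovaries, but by much less in Bnc1tr/tr. Fdft1 over Fdps went from -0.33 ± 0.057 to 0.24 ± 0.33 (log2 ratio, SD, n = 3 each), a difference of 0.58.

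Upstream, the kinases stood apart from the enzymes on either side. Mvk over Hmgcs1 rose from a mean log2 ratio of -2.42 ± 0.26 to -1.59 ± 0.11, a difference of 0.83. Mvd over Pmvk fell from 1.91 ± 0.13 to 0.70 ± 0.20, a difference of -1.21 (SD, n = 3 each). Idi1 over Mvd differed by -0.60 and Fdps over Idi1 by 0.54, both without overlap. With 5 instead of 0.5 added to each count, the genotypes overlapped for Fdps over Idi1 (difference 0.46, p = 0.2 by exact permutation), which left 5 of 8 pairs without overlap. For Hmgcs1 over Acat2 (difference -0.17) and Pmvk over Mvk (difference 0.37) the ovaries of the genotypes overlapped, and each pair had p = 0.3 by exact permutation, 0.3 after adjustment.

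**Figure D3:**
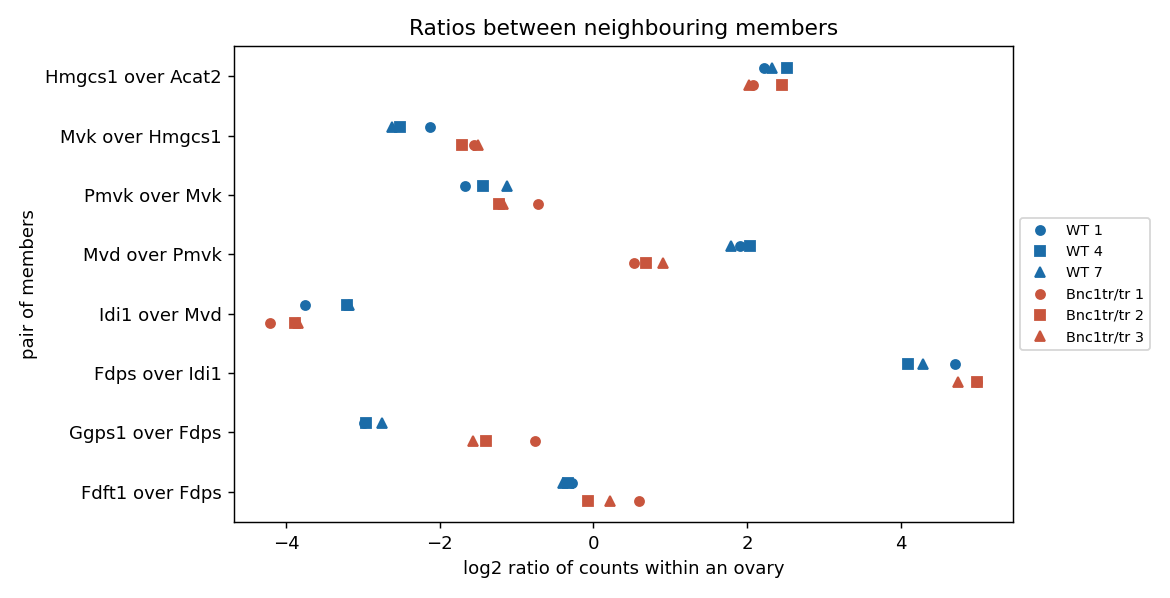
Log2 ratio of counts between neighbouring members within each ovary (x axis) for 8 pairs (y axis), with 1 point per ovary. The ratio of Ggps1 to Fdps shows the widest gap, with WT ovaries between -2.98 and -2.75 and Bnc1tr/tr ovaries between -1.56 and -0.77.

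Levels of different genes were compared only per length, as CPM per kb of exon. In WT ovaries the order was Hmgcs1 (94.8 ± 18.7), Mvd (62.0 ± 13.0), Fdps (53.9 ± 7.64), Fdft1 (42.7 ± 6.31), Acat2 (33.3 ± 3.62), Mvk (30.6 ± 6.77), Pmvk (17.7 ± 2.15), Ggps1 (6.45 ± 0.83) and Idi1 (3.24 ± 1.08 CPM per kb, SD, n = 3 each). Of neighbours in this order, Mvd and Fdps, Fdps and Fdft1, and Acat2 and Mvk overlapped between ovaries. In Bnc1tr/tr ovaries Hmgcs1 was still the highest, at 28.9 ± 6.76 CPM per kb, and Idi1 the lowest, at 0.64 ± 0.22 CPM per kb (SD, n = 3 each). Between them the order changed, and Acat2 (11.5 ± 2.84) came below Mvk (16.4 ± 3.86) and Pmvk (12.3 ± 1.28 CPM per kb, SD, n = 3 each). Each neighbouring pair from Hmgcs1 down to Acat2 overlapped in Bnc1tr/tr ovaries, whereas Ggps1 (5.82 ± 0.34 CPM per kb) and Idi1 stood clear below. The positions of Fdps, Mvd, Fdft1 and Mvk between the ends depend on the length used, since with the longest transcript Fdps came ahead of Mvd in both genotypes.

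**Figure D4:**
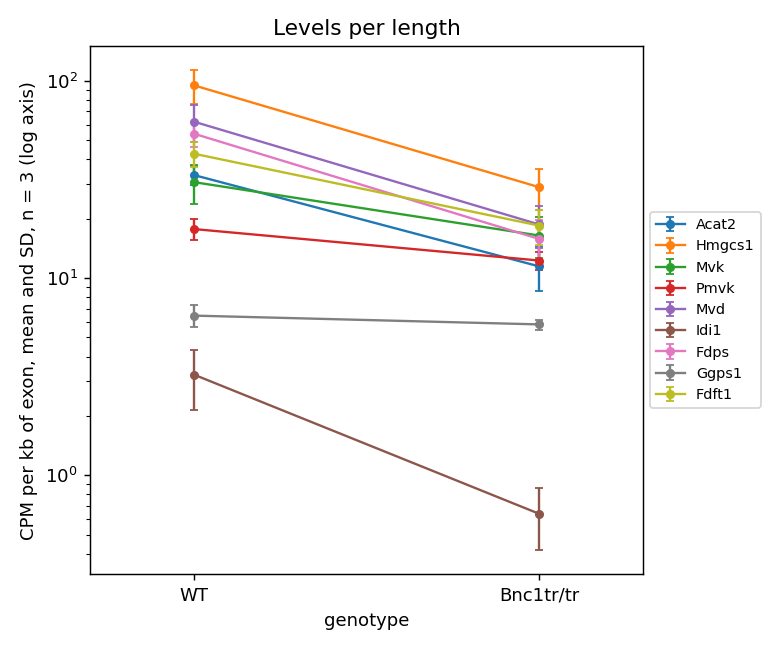
CPM per kb of exon (log axis) of each member in WT and Bnc1tr/tr ovaries, as mean and SD of 3 ovaries. The lines of Hmgcs1, Mvd, Fdps and Acat2 fall steeply and bunch with those of Mvk and Pmvk, while Ggps1 goes from 6.45 to 5.82 CPM per kb.

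Promoters are shown for Hmgcs1, the synthase with the most reads, Mvd, which fell to a like extent, Mvk, which fell less, and Ggps1, which did not pass the test. The RefSeq promoter table (GRCm38.p6) held 7 of the 9 members, and Fdps and Fdft1 were not among them. The 180 bases before the annotated start are written 5′ to 3′ on the gene's strand, with capitals for matches on either strand to 3 short motifs: TCACNCCAC, letters of the SREBP element, CCAAT, the box bound by NF-Y, and GGGCGG, the box bound by Sp1. No motif match overlapped another in these 4 stretches. The stretches are chr13:119690171-119690350 (plus strand) for Hmgcs1, chr8:122443423-122443602 (minus strand) for Mvd, chr5:114444089-114444268 (plus strand) for Mvk and chr13:14063489-14063668 (minus strand) for Ggps1.
Hmgcs1: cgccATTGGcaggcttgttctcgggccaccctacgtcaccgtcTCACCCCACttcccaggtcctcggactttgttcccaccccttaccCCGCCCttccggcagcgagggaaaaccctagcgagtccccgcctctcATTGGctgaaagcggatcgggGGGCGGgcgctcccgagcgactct
Mvd: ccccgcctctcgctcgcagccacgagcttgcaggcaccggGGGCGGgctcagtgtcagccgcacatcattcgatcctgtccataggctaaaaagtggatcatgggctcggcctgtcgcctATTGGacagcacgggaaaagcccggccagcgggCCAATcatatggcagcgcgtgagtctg
Mvk: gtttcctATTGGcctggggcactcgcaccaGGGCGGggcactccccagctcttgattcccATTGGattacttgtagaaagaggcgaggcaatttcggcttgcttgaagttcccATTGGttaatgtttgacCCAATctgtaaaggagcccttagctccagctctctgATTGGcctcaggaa
Ggps1: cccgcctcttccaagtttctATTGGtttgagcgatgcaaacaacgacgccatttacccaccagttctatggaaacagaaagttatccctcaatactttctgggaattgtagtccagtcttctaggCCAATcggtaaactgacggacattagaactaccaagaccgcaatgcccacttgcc

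Within 250 bases before the start, TCACNCCAC was present in Hmgcs1 alone of the 7 members, 137 bases upstream, and in 1.05% of all 32851 promoters of the table. CCAAT was present in 6 of the 7 members and in 33.8% of all promoters, and GGGCGG in 5 of 7 and in 32.7%. Pmvk is among the 6 through a CCAAT match before only 1 of its annotated starts. The 180 bases before another start (chr3:89459391-89459570, plus strand) held no match to any of the 3 motifs. Mvk had 5 CCAAT matches, of which 4 read ATTGG on the plus strand at 173, 120, 67 and 14 bases before the start, 53 bases apart each time. Ggps1 had 3 CCAAT matches and no GGGCGG, and Acat2 had GGGCGG but no CCAAT. A match describes letters only, and other spellings of these elements, or elements outside the window, were not searched.

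The rest of the cholesterol pathway and its surroundings were counted from lists written by hand. Of 11 genes that convert squalene to cholesterol, 9 were lower and none was higher, against 4.19% and 2.88% of all genes tested. Their median log2 fold change was -1.39. The largest changes were those of Hsd17b7 (-3.82), Dhcr7 (-1.93), Lss (-1.87) and Nsdhl (-1.53), and Msmo1 (-0.76, adjusted p = 0.0588) was among the 2 that did not pass the test. When 1 ovary was left out, 6 to 10 of the 11 were called. The median of the mevalonate arm, -1.54, was thus of like size, and no test compared the arms.

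Of 4 genes that supply acetyl-CoA or reducing power in the cytosol, 3 were lower, against 4.19% of all genes tested. Acly, ATP citrate lyase, had a log2 fold change of -1.17 (989 ± 162 to 441 ± 76.4 CPM, SD, n = 3 each). Acss2, acetyl-CoA synthetase, had -1.03, and Slc25a1, the mitochondrial citrate carrier, had -0.61. Malic enzyme, Me1, had -0.33 (adjusted p = 0.62). Without WT ovary 4 only 1 of these genes was called.

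Of 7 genes of sterol sensing, 3 were lower, against 4.19% of all genes tested. They were Insig1 (log2 fold change -0.93, edgeR adjusted p = 0.0316), Scap (-0.83, 0.00366) and Srebf2 (-0.47, 0.0241). Insig1 encodes an endoplasmic reticulum protein that holds SREBPs back, Scap one that escorts them, and Srebf2 encodes SREBP-2. Srebf1 had a log2 fold change of -0.23 (adjusted p = 0.107). The count was 1 without WT ovary 4, Bnc1tr/tr ovary 2 or Bnc1tr/tr ovary 3, and 2 without any 1 of the others.

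Other users of farnesyl and geranylgeranyl diphosphate were also counted. Of 14 genes for protein prenylation, dolichol, coenzyme Q and other side chains, 1 was called lower. Over all genes tested the share was 4.19%, and 1 call does not set the list apart. The median log2 fold change was -0.10, and 11 of the 14 were negative. In 6 of them every Bnc1tr/tr ovary lay below every WT ovary, against 15.8% of all genes tested, and in 1 every Bnc1tr/tr ovary lay above. No gene of this list was called when any 1 ovary was left out.

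Paralogs and mitochondrial counterparts of the members gave mixed values. In 3 of the 7 tested every Bnc1tr/tr ovary lay below every WT ovary, against 15.8% of all genes tested, and in 1 above. Acat3 was among the 3, with a log2 fold change of -1.14 (edgeR adjusted p = 0.077). Acat1, the mitochondrial thiolase, was at 161 ± 14.7 CPM in WT and 157 ± 3.02 CPM in Bnc1tr/tr (SD, n = 3 each), a log2 fold change of -0.037 (adjusted p = 0.836). The log2 ratio of Acat2 to Acat1 lay between -0.98 and -0.90 in WT and between -2.80 and -2.05 in Bnc1tr/tr ovaries. This pair was chosen after its values were seen and was not tested. Of the 7 tested genes on this list 1 was lower, against 4.19% of all genes tested, and 1 call does not set the list apart. That gene was Acaa2 (-0.61, edgeR adjusted p = 0.0191), a thiolase of fatty acid oxidation. It was not called without WT ovary 4 or 7, and 2 genes of the list were called without Bnc1tr/tr ovary 1.

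**Figure D5:**
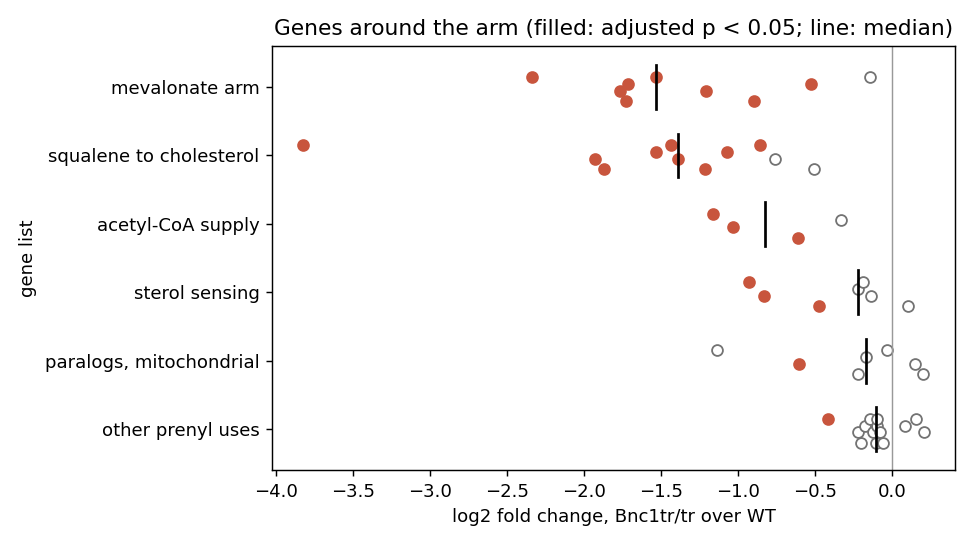
Log2 fold change (Bnc1tr/tr over WT, x axis) of each tested gene in 6 hand-written lists (y axis), filled where adjusted p was under 0.05, with a line at the median of each list. The mevalonate arm and the genes from squalene to cholesterol lie mostly below -0.5, while the other prenyl users lie around 0 with a median of -0.10.

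Corpus luteum markers differed between the genotypes as well. Of 12 markers 8 were lower, against 4.19% of all genes tested. Among them were Lhcgr (log2 fold change -3.01, edgeR adjusted p = 0.000235), Sfrp4 (-2.54, 0.0174), Star (-2.23, 0.0374) and Ptgfr (-2.05, 0.0349). The call of Hsd3b1 (edgeR adjusted p = 0.0391) was lost with library size alone (0.0512) and with at least 10 counts in every ovary (0.0526). The summed level of the 12 markers was 24130, 28810 and 27770 CPM in the WT ovaries. In the Bnc1tr/tr ovaries it was 7614, 13310 and 11640 CPM, and no marker was at 0 throughout. Within the genotypes the order of this sum matched that of the summed members in part. WT ovary 4 and Bnc1tr/tr ovary 1 were the highest WT and the lowest Bnc1tr/tr ovary for both sums, but the lowest WT ovary was 1 for the markers and 7 for the members, and the highest Bnc1tr/tr ovary was 2 for the markers and 3 for the members. Several of these markers are themselves genes of steroid synthesis and cholesterol uptake. Their part in the member values was not tested.

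The other lists showed no fall called, and calls of higher genes stand against 2.88% of all genes tested. Theca markers had 0 of 6 called (2076 to 2370 CPM summed in WT, 2172 to 3081 in Bnc1tr/tr) and macrophage markers 0 of 8 (574 to 624 and 393 to 786 CPM). Most of the theca sum was Aldh1a1, with means of 1631 CPM in WT and 1927 CPM in Bnc1tr/tr. Cyp17a1 differed widely between ovaries, from 8.62 to 124 CPM in WT and from 3.66 to 235 CPM in Bnc1tr/tr. Granulosa markers had 2 of 11 higher, Amh (edgeR adjusted p = 0.0294) and Amhr2 (0.00589). The list was mixed, with 6 positive and 5 negative log2 fold changes and a median of 0.12. The 11 summed to 4778 to 6078 CPM in WT and 5131 to 7819 CPM in Bnc1tr/tr. Oocyte markers had 3 of 13 higher, Gdf9 (edgeR adjusted p = 0.0458), Bmp15 (0.0204) and Oosp1 (0.0262). The 13 summed to 614 to 788 CPM in WT and 767 to 1183 CPM in Bnc1tr/tr. Oviduct markers had 0 of 8 tested called, but their sum was 541 CPM in Bnc1tr/tr ovary 3 and 145 CPM in WT ovary 1, against 12.7 to 29.2 CPM in the other 4 ovaries. Adipose markers had 1 of 8 higher (Plin1, edgeR adjusted p = 0.0442). Their sum reached 372 and 268 CPM in Bnc1tr/tr ovaries 1 and 2, against 17.0 to 95.8 CPM in the other 4. Liver markers had 1 of 3 tested higher (Apoa1), with Krt5 of the oviduct list and Fgb of the liver list at no more than 3 reads in any ovary. Without Bnc1tr/tr ovary 1, 2 or 3 the number of members called was 6 each time, the 2 lost being Mvk and Pmvk.

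Bnc1 itself was at 13.9, 13.4 and 13.1 CPM in the WT and at 18.7, 13.7 and 11.5 CPM in the Bnc1tr/tr ovaries (adjusted p = 0.733), and gene counts do not show the deletion. Library totals were 28123709 to 34406296 reads in WT and 25247770 to 27315341 reads in Bnc1tr/tr. The split of genes called over the whole table depended on the scaling. After TMM 1372 genes were called, 59.3% of them lower, and with library size alone 1728 were called, 35.6% of them lower, with the median log2 fold change of all genes tested at 0.12. Relative to that shift the member values kept their place. All 9 were still negative with library size alone, and 6 of them were called, without Mvk (log2 fold change -0.80, adjusted p = 0.0558) and Pmvk (-0.43, adjusted p = 0.071).

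Of 16633 genes outside the lists with a mean of at least 1 CPM, 27 followed the mean profile of the 9 members over the 6 ovaries at r over 0.99. Among the 5 closest were Dnaja4, a co-chaperone gene (Pearson's r 0.998, Spearman's rho 0.943), 1810044D09Rik (r 0.998, rho 0.943) and Pla2g5, a secreted phospholipase (r 0.997, rho 1). Dnaja4 fell from 109 to 48.0 CPM (log2 fold change -1.19, adjusted p = 0.00682) and Pla2g5 from 84.8 to 27.0 CPM (-1.65, adjusted p = 0.00528). 1810044D09Rik (log2 fold change -0.61, adjusted p = 0.131) did not pass the test, so a like pattern over 6 ovaries went with changes of different size.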

How the data were processed

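Single-end Ion Proton libraries were made from TRIzol-extracted total RNA of whole ovaries. What the authors deposited are raw read counts per gene symbol and ovary, not normalized. The submitters' processing notes name the builds mm10 and Sscrofa10.2 with no role. Aligner, counting tool, strand setting and annotation are not given in the sources used here.

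Genes were filtered with filterByExpr (minimum count 10), scaled with TMM and tested with edgeR 4.0.16 (glmQLFit and glmQLFTest, R 4.3.3), with a standard error equal to the log2 fold change divided by the square root of F. The pipeline was tested on simulated data. Step ratios used counts with 0.5 added. Gene positions and lengths came from GENCODE M21 (GRCm38), and 2 older symbols were matched through RefSeq synonyms. Alternatives were DESeq2 1.42.0, limma 3.58.1 (voom), a robust fit, other scalings and filters, and leaving out each ovary.

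The members and gene lists were chosen with earlier results of these data known. The text names each member, the genes called in each list (up to 4) and the 5 genes with the most similar profile, while genes named as not called were chosen after their values were seen. Some genes that this rule names are not reported here.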

Additional observations from a re-analysis of the deposited data

How the results depend on the processing

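No paired analysis was possible because the groups share only the number 1, and litters are not labelled, although the methods describe littermates. With another scaling, filter or tool, or without 1 ovary (14 alternatives), 6 members (Acat2, Hmgcs1, Mvd, Idi1, Fdps and Fdft1) were called lower each time, with an adjusted p from 7.09e-18 with DESeq2 to 0.0443, and Ggps1 was called in none. Mvk lost its call under 8 of the 14 and Pmvk under 7, with an adjusted p from 0.000651 to 0.182 and from 0.00634 to 0.158 over the alternatives. The number of members called lower was 6 or 7 when 1 ovary was left out, and 6 with an absolute log2 fold change over 1 also required. The number of all genes called was 2344 with DESeq2, 648 with that fold change required, and between 320 (without WT ovary 4) and 1282 when 1 ovary was left out. Requiring a larger fold change can only lower the count, while the causes of the other differences were not tested. With 5 added to each count the 8 step ratios kept their direction, but 5 rather than 6 pairs had no overlap between genotypes, the pair lost being Fdps over Idi1 (p = 0.2 by exact permutation). Idi1 had the lowest counts of the members, with 43 reads in its lowest ovary. Its coefficient of variation was 33.5% in WT and 34.7% in Bnc1tr/tr, and the part of depth in this spread was not tested.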
